A study of Mus musculus with 6 samples.

Results

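The genes described here encode the core splicing machinery and the proteins that coat nascent transcripts: the SR proteins (Srsf), the heterogeneous nuclear ribonucleoproteins (Hnrnp), the small nuclear ribonucleoprotein proteins (Snrp), the Sm-like proteins (Lsm), the SF3a and SF3b subunits (Sf3a, Sf3b), the U2 auxiliary factor (U2af) and the pre-mRNA processing factors (Prpf). Members were defined by symbol, as protein-coding genes of the RefSeq annotation of GRCm38. Their symbols start with 1 of those stems, with Lsm followed by a digit. The members were chosen with earlier results of these data known. They numbered 82 of 21887 protein-coding genes: 11 Srsf, 21 Hnrnp, 12 Snrp, 13 Lsm, 9 Sf3, 3 U2af and 13 Prpf genes. Hnrnpa1l2-ps2 was kept because the annotation lists it as protein-coding, although its symbol is that of a pseudogene.

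Binding of the transcription factor c-Myc was mapped by chromatin immunoprecipitation and sequencing (ChIP-seq) in 3 lines of mouse lung cancer cells, which the labels call PB115, PB119 and PB120. Each line had 1 c-Myc ChIP library, made with the D3N8F antibody, and 1 input library of sonicated chromatin as its control. No line had a replicate, so differences between lines carry no error and were not tested. The labels name each line without a genotype, driver mutation, tumour subtype or treatment, and with no expression values in the files the identity of the cells was not checked here.

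Splicing removes introns through the spliceosome, which is built from small nuclear RNAs wrapped in protein. A ring of Sm proteins surrounds most of these RNAs and a ring of LSm proteins surrounds U6; U1 recognises the start of an intron, U2AF and the U2 particle with SF3a and SF3b recognise its end and branch point, and the U4/U6.U5 tri-snRNP joins next. SR proteins mostly promote, and hnRNP proteins often repress, the use of nearby splice sites. c-Myc binds DNA as a dimer with Max, prefers the E-box CACGTG, and is known for occupying promoters of genes of growth and RNA metabolism.

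Promoter sequences were available for 70 of the 82 members, as 93 windows of 300 bases that run from 250 bases before to 50 after a listed transcription start (RefSeq, GRCm38.p6, the same assembly as mm10). CACGTG, which reads the same on both strands, was found in a window of 9 of the 70 members (12.9%) and of 8.91% of the 17492 protein-coding genes with a sequence. Counted by window, the share was 11.8% for members and 7.84% for all such genes. The 7 windows below hold CACGTG, in capitals, at the 6 members among them with a c-Myc peak at an end or in the body in all 3 lines; another Prpf3 window with the same E-box is left out. A summit is the base of highest ChIP coverage in a peak. Each window is written 5′ to 3′ on the strand of the gene, and its last 50 bases begin at the listed start.
Prpf3, chr3:95855836-95856135, minus strand: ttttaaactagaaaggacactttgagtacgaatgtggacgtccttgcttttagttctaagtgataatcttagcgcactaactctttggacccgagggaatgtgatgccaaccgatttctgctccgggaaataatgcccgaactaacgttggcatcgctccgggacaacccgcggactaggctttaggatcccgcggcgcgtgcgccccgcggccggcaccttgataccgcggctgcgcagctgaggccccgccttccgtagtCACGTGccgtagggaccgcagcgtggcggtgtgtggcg
Snrpa, chr7:27195711-27196010, minus strand: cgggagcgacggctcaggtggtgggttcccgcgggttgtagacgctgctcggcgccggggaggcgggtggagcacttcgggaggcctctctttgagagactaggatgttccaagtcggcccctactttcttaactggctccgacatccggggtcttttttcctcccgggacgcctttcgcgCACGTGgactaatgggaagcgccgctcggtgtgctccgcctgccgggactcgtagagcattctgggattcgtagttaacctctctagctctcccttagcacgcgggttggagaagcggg
Snrpa, chr7:27196222-27196521, minus strand: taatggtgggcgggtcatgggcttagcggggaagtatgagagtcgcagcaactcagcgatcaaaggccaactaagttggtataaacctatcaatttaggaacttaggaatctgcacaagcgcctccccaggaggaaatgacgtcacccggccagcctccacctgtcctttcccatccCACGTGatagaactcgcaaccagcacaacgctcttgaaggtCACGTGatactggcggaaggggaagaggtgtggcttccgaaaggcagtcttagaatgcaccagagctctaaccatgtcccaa
Hnrnpf, chr6:117907554-117907853, plus strand: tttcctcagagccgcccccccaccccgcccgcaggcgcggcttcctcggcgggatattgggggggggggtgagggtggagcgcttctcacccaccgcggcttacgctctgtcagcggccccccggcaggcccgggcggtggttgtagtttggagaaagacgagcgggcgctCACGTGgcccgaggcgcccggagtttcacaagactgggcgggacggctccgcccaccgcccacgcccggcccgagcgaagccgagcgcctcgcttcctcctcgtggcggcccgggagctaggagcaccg
Hnrnpm, chr17:33685409-33685708, minus strand: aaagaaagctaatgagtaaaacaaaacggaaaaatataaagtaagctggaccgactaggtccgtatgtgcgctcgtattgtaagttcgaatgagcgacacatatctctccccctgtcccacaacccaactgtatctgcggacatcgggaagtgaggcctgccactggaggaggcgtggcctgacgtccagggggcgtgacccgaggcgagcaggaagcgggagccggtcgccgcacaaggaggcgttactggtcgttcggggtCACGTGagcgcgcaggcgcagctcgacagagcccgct
Prpf39, chr12:65036084-65036383, plus strand: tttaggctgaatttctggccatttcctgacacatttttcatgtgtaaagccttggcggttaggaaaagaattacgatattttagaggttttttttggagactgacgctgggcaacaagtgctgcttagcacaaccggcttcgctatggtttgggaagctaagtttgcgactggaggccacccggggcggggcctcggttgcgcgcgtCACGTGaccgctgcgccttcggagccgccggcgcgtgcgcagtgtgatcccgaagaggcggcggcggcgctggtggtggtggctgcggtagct
Hnrnpa3, chr2:75659009-75659308, plus strand: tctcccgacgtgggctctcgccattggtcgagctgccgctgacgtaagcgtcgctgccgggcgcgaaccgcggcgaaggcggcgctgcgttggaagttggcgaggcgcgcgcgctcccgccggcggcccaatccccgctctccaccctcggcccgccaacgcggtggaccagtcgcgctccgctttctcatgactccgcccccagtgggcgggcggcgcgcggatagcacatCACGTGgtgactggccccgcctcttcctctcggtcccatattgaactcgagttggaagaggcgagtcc

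At Prpf3, a protein of the tri-snRNP, CACGTG began at base 263, or +12 from the listed start, and the nearest summit was 25 bp off in PB115 and 8 bp off in both PB119 and PB120. None of the other 8 members with CACGTG had a summit within 50 bp of it in every line. Snrpa, which encodes the A protein of U1, had 1 CACGTG in the first of its windows, with the nearest summit at 86, 50 and 12 bp in PB115, PB119 and PB120. The other window of Snrpa held 2 copies, and there PB120 had a summit 6 bp away, while the nearest summits lay 560 bp away in PB115 and 524 bp in PB119. These 2 copies still lay inside the PB115 and PB119 peaks of Snrpa, which were 850 and 928 bp long. At Hnrnpf the distances were 154 bp (PB115), 112 bp (PB119) and 113 bp (PB120), at Hnrnpm 79, 55 and 81 bp, and at Prpf39 100, 96 and 53 bp. For Hnrnpa3 they were 79 bp (PB115), 71 bp (PB119) and 354 bp (PB120). Hnrnpa3, Hnrnpf and Hnrnpm encode RNA-binding hnRNP proteins and Prpf39 a protein associated with U1. The distance from E-box to summit thus differed widely between members, also where the gene was listed in every line. Hnrnpd and Prpf40b, also with CACGTG but without a peak in PB120, are not printed; their nearest summits lay 90 and 109 bp away in PB115 and 66 and 117 bp away in PB119.

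The next 3 windows are shown as contrasts. Hnrnph2 had CACGTG at base 266 and no peak in any list, with the nearest summit 15395 bp away in PB119. Hnrnpr had no CACGTG in the window, where its leading summits fell at base 276 in PB115, base 285 in PB119 and base 252 in PB120, but it holds the related CGCGTG at base 266. Srsf7 had neither hexamer; its PB120 summit, of low rank in that list, fell at base 176, while its PB115 and PB119 summits lay outside the window, 167 and 176 bp downstream of the listed start.
Hnrnph2, chrX:134600929-134601228, plus strand: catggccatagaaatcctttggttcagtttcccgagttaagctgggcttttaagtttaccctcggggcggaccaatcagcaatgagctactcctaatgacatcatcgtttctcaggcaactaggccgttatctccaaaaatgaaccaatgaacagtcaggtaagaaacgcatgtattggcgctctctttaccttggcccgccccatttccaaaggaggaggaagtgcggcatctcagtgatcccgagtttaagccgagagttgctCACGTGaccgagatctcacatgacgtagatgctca
Hnrnpr, chr4:136310692-136310991, plus strand: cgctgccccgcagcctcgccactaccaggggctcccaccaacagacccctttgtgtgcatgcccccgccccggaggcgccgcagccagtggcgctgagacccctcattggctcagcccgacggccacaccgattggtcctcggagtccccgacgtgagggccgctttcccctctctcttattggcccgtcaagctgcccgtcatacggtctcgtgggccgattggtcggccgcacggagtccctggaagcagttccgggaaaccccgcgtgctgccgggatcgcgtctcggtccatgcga
Srsf7, chr17:80207256-80207555, minus strand: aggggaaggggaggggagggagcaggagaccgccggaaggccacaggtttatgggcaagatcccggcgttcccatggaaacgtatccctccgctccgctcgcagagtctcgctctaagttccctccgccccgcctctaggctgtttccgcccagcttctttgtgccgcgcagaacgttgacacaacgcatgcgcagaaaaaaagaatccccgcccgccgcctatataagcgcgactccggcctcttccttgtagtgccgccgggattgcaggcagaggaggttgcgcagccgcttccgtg

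Among all coding genes, windows that held a c-Myc summit had CACGTG more often than windows without one. In PB120 the shares for members were 17.1% of 41 windows with a summit and 7.69% of 52 without, and for all genes they were 20.5% of 2323 and 6.28% of 18940. In PB119 the members' shares were 15.6% of 45 and 8.33% of 48, against 16.7% and 5.60% for all genes. In PB115 they were 12.2% of 41 and 11.5% of 52, against 19.7% and 5.99% for all genes. The counts behind the members' shares are small, from 4 to 7 windows with CACGTG in each class. When the related hexamer CACGCG, or CGCGTG on the other strand, was accepted as well, 26 of the 70 members (37.1%) had a match, against 20.8% of all genes. Member windows were also richer in CpG, with a median observed over expected CpG ratio of 0.941, against 0.567 for the windows of all genes, and a median GC content of 60.3%, against 56.3%. The part of base composition in the motif shares was not tested.

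The authors listed 7830 (PB115), 13527 (PB119) and 5168 (PB120) peaks, from 40494386, 40726886 and 32299364 ChIP tags and from 28380432, 37979638 and 26156520 input tags. PB120 had the fewest tags and the shortest list. The weakest listed summit held 24 (PB115), 19 (PB119) and 21 (PB120) ChIP fragments, so a gene with no listed peak was not detectable at the authors' cutoff and cannot be called free of c-Myc. PB120 also had a larger share of its peaks on chromosome 8, 8.20% against 5.12% in PB115 and 5.20% in PB119. There are 4 members there (Lsm1, Lsm4, Lsm6 and Sf3b3).

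In PB115 62 members (75.6%) had a c-Myc summit no more than 1000 bp from an annotated end, in PB119 68 (82.9%) and in PB120 47 (57.3%). The same shares over all protein-coding genes were 23.6% (PB115), 35.3% (PB119) and 16.4% (PB120). Of the members, 46 had such a summit in all 3 lines (56.1%), against 14.4% of all genes. When summits anywhere in the gene body were counted too, 66, 73 and 52 members had one in PB115, PB119 and PB120, against 28.8%, 42.2% and 20.1% of all genes. By that count 51 members were listed in all 3 lines, against 17.5% of all genes, and 73 in at least 1 line, or 89.0% against 43.0%. The members' share was above that of coding genes at large in each of the lines.

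The gene table carries no strand, so an annotated end can be either the start or the far end of a gene. Restricted to summits within 1000 bp of a listed transcription start, the counts were 58, 62 and 46 of the 70 members with a promoter sequence in PB115, PB119 and PB120, against 25.8%, 38.0% and 17.6% of all genes with a sequence. In all 3 lines there were 45, against 15.6%. Members differ from coding genes at large in promoter type: 64 of 70 (91.4%) had a CpG-rich window, against 48.3% of all genes, where CpG-rich means a GC content of at least 50% and a CpG ratio of at least 0.6. Among genes with a CpG-rich window the shares with a gene-end summit were 52 of 64 members (81.2%) in PB115, 54 (84.4%) in PB119 and 40 (62.5%) in PB120. The shares over all CpG-rich genes were 43.5% (PB115), 62.4% (PB119) and 31.1% (PB120). The gap between members and other genes was thus smaller within this promoter type. In all 3 lines there were 39 of the 64 members, against 27.6% of CpG-rich genes.

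**Figure D1:**
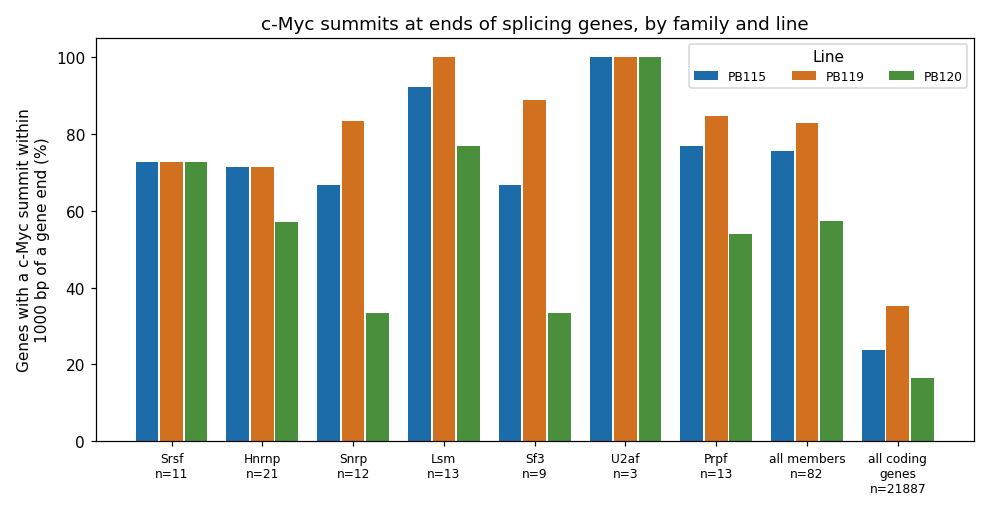
Share of genes (vertical axis, percent) with a summit of c-Myc no more than 1000 bp from an annotated end, for each family, for all 82 members and for all 21887 protein-coding genes, with 1 bar per cell line and the number of genes under each group. All members together stand at 75.6%, 82.9% and 57.3% in PB115, PB119 and PB120, and all coding genes at 23.6%, 35.3% and 16.4%; each bar is 1 library, so there are no error bars.

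The fold given below is the authors' ratio of ChIP to local input at the summit, and the percentile is the place of that fold within its own list, where 100 is the highest. Each gene is described by its gene-end peak of highest fold, called its leading peak. Folds of different lists rest on different depths, and percentiles on lists of different length, so both stand side by side as a description and are not compared across lines. Leading peaks of the listed members had median folds of 11.5 (PB115), 15.4 (PB119) and 9.76 (PB120). For all listed coding genes the medians were 10.4 (PB115), 11.6 (PB119) and 9.23 (PB120). The members' median percentiles were 67.9 (PB115), 81.0 (PB119) and 61.2 (PB120), against 58.0, 63.9 and 54.1 for all listed genes. In PB119 36 of 68 listed members (52.9%) fell in the top 20% of the list, against 30.0% of all listed genes. The counts in PB115 and PB120 were 21 of 62 (33.9%) and 11 of 47 (23.4%), against 25.4% and 23.0%, so that the PB120 share was close to that of all genes.

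**Figure D2:**
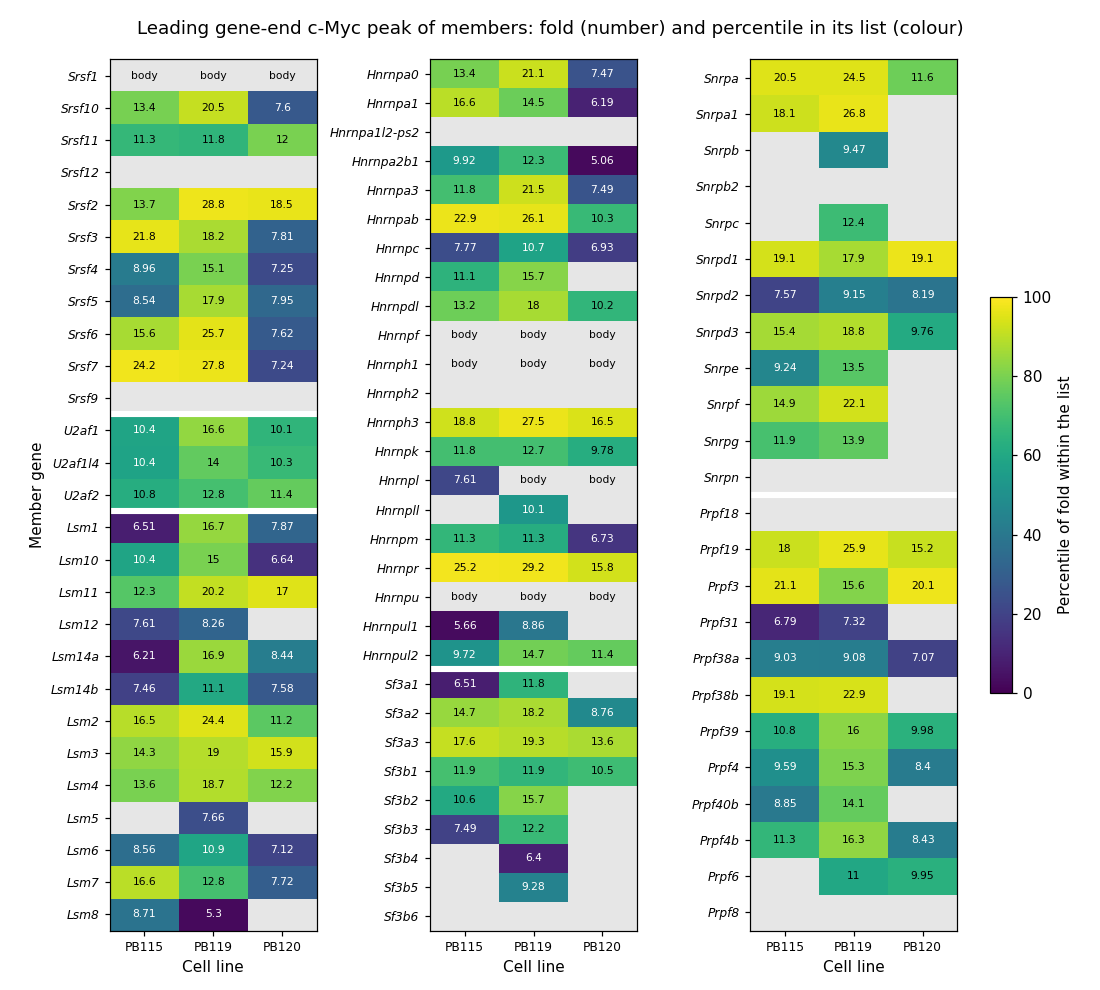
Leading gene-end c-Myc peak of members (rows, grouped by family) in each line (columns): the number is the authors' fold and the colour the percentile of that fold in its list, from 0 to 100. Grey cells have no gene-end summit and "body" marks genes with a summit only inside the gene; in PB120 4 of 12 Snrp and 3 of 9 Sf3 genes have a coloured cell.

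SR proteins carry RNA-recognition motifs and a tail of arginine and serine repeats, and bind exonic enhancers. For the family and particle counts from here on, the shares over all coding genes were 23.6% (PB115), 35.3% (PB119) and 16.4% (PB120). Among genes with a CpG-rich window those shares were 43.5%, 62.4% and 31.1%. The same 8 of 11 Srsf genes had a gene-end summit in PB115, PB119 and PB120. Within the lists their median percentile was 80.2 (PB115), 89.2 (PB119) and 29.9 (PB120). Srsf2, the SR protein also called SC35, had folds of 13.7 (PB115), 28.8 (PB119) and 18.5 (PB120). Its percentiles were 80.9 (PB115), 97.5 (PB119) and 96.5 (PB120), the highest mean in the family. Its PB119 peak spanned chr11:116852216-116853896, with the summit 84 bp downstream of a listed start, and the PB120 summit lay at -624 bp from a start, still inside that span. In PB115 and PB119 its leading summit also lay within 1000 bp of Mfsd11.

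Srsf7, which also acts in mRNA export, had folds of 24.2 (PB115), 27.8 (PB119) and 7.24 (PB120). Its percentiles were 97.7 (PB115), 97.1 (PB119) and 22.5 (PB120). The PB119 peak spanned chr17:80206654-80207540. In each line the leading summit also lay within 1000 bp of Gemin6, a gene of the SMN complex that loads Sm rings, so it cannot be assigned to Srsf7 alone. Srsf3, another SR protein with a role in export, had folds of 21.8 (PB115), 18.2 (PB119) and 7.81 (PB120), at the 96.3, 87.3 and 31.4 percentile, with summits 153, 165 and 154 bp from the end of the gene. Srsf6 had 15.6 (PB115), 25.7 (PB119) and 7.62 (PB120). The other 4 listed everywhere were Srsf4, Srsf5, Srsf10 and Srsf11. Of these, Srsf11 had gene-end folds of 11.3 (PB115), 11.8 (PB119) and 11.97 (PB120), the last at the 80.04 percentile of its list. Srsf11 also had a body peak at -10 (PB115) and -19 bp (PB119) from a listed start, with folds of 11.63 and 18.31. PB120 had no such body peak. Of the 8 genes, only Srsf2 and Srsf11 stood above the 50th percentile of the PB120 list.

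Srsf1, the SR protein also known as SF2/ASF, had no gene-end summit and would be missed by that window. Its leading summit lay inside the gene in every line, 1076 bp (PB115), 1092 bp (PB119) and 1102 bp (PB120) from the nearer annotated end and 202, 218 and 228 bp downstream of a listed start. The folds were 23.4 (PB115), 31.3 (PB119) and 8.78 (PB120). In PB119 that is the 98.4 percentile and 142 fragments, in a peak at chr11:88047157-88048531. Srsf9 and Srsf12, the remaining SR genes, had no summit at an end or in the body in any list.

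The hnRNP genes numbered 21, of which 15, 15 and 12 had a gene-end summit in PB115, PB119 and PB120, and 18, 19 and 16 had one at an end or in the body. Hnrnpr, an RNA-binding protein related to Syncrip, had the highest mean percentile of all members with a gene-end summit in 3 lines, 96.3. Its folds were 25.2 (PB115), 29.2 (PB119) and 15.8 (PB120) on 133, 140 and 77 fragments. The summits fell 25 bp (PB115), 34 bp (PB119) and 1 bp (PB120) downstream of a listed start, and the PB119 peak spanned chr4:136310349-136311188. Hnrnph3, of the G-tract-binding hnRNP H and F group, had 18.8 (PB115), 27.5 (PB119) and 16.5 (PB120), with all its leading summits also within 1000 bp of Pbld2. Hnrnpab, a paralogue of the AU-rich-element binder Hnrnpd, had 22.9 (PB115), 26.1 (PB119) and 10.3 (PB120), with summits 9, 60 and 29 bp downstream of the start.

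Hnrnpa1 and Hnrnpa2b1 encode the best known splicing repressors of the family and are described elsewhere, with Ptbp1, as regulators of pyruvate kinase splicing downstream of c-Myc. Hnrnpa1 had 2 peaks at or near its start in each line. The inner summit lay 990 bp from the end in PB115 and in PB119, with folds of 16.6 and 14.5, and just outside the window in PB120, with a fold of 9.16. The outer PB120 summit, 17 bp from the end, had a fold of 6.19 and was shared with Cbx5. Hnrnpa2b1 had 9.92 (PB115), 12.3 (PB119) and 5.06 (PB120), at the 53.7, 68.3 and 2.43 percentile, and in each line the summit was shared with its divergent neighbour Cbx3. It also had a body peak, with folds of 10.3 in PB115 and 16.1 in PB119 and none in PB120. Hnrnpc, a binder of uridine tracts, had 7.77 (PB115), 10.7 (PB119) and 6.93 (PB120). Hnrnpk, which binds cytosine tracts, had 11.8 (PB115), 12.7 (PB119) and 9.78 (PB120). In PB120 these 4 genes thus sat at the 62.1 percentile or lower, while Hnrnpr and Hnrnph3 stood at 93.2 and 94.4.

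Hnrnpf, whose protein binds G tracts, had the highest fold of all members in PB115 and PB119, in a peak whose summit lay 7499 to 7541 bp inside the annotated gene. In PB120 the folds of Prpf3, Snrpd1 and Srsf2 were higher. Its folds were 29.0 (PB115), 39.9 (PB119) and 18.4 (PB120), the 99.0, 99.6 and 96.4 percentile. The summits lay 77 bp (PB115), 35 bp (PB119) and 36 bp (PB120) downstream of an internal listed start, the one whose window is printed above, on 143, 170 and 72 fragments. The exact 95% Poisson interval of the counts was 120.5 to 168.5 in PB115 and 145.4 to 197.6 in PB119, and covers counting error only. The PB119 peak spanned chr6:117906658-117908334. In that place the annotation also has the coding gene 4933440N22Rik, so the summit is not unique to Hnrnpf.

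Hnrnpu, which encodes the scaffold attachment factor, had paired body peaks. The stronger had folds of 14.8 (PB115), 29.7 (PB119) and 17.9 (PB120) at 1354, 1343 and 1263 bp downstream of a listed start, and the weaker 9.59, 17.9 and 9.59 at 34, 34 and 31 bp. The stronger peak ranked at 85.0 (PB115), 97.8 (PB119) and 95.9 (PB120) in its lists. Hnrnph1, a close paralogue of Hnrnpf, had a leading body peak of 10.0 (PB115), 17.9 (PB119) and 5.06 (PB120). The last of these was at the 2.43 percentile of PB120. Hnrnpl, which binds CA repeats, had a gene-end summit in PB115 alone, with a fold of 7.61. Its main peaks were internal, with folds of 16.6 (PB115), 25.7 (PB119) and 17.3 (PB120) at 553, 558 and 550 bp downstream of a listed start, and summits 1039 bp from the end in PB119 and 1012 bp in PB120 fell just outside the window.

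Of the 13 members with a body summit, 4 had no other kind (Srsf1, Hnrnpf, Hnrnph1 and Hnrnpu). Body peaks numbered 16 in PB115, 17 in PB119 and 12 in PB120, of which 13, 14 and 8 lay within 1000 bp of a listed start. Most peaks that the gene-end window missed were thus near a listed start. Hnrnpd, whose protein directs decay of AU-rich messages, had gene-end folds of 11.1 in PB115 and 15.7 in PB119 and none in PB120. Hnrnpul1 had 5.66 and 8.86, near Axl, and none in PB120. Hnrnpll, a regulator of CD45 splicing in lymphocytes, had 10.1 in PB119 alone. Hnrnph2 and Hnrnpa1l2-ps2 had no summit in any list.

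The Sm proteins form the ring that is loaded onto U1, U2, U4 and U5 RNA. Of the 8 Sm genes, 6, 7 and 3 had a gene-end summit in PB115, PB119 and PB120. The 3 listed in PB120 were Snrpd1, Snrpd2 and Snrpd3, a set noticed after the values were seen. Snrpd1 had folds of 19.1 (PB115), 17.9 (PB119) and 19.1 (PB120), at the 93.6, 86.9 and 97.1 percentile, with the summit 33, 1 and 10 bp from the end of the gene. Snrpd3 had 15.4 (PB115), 18.8 (PB119) and 9.76 (PB120), with a summit shared with Gucd1, while Snrpd2, whose summit was shared with Qpctl, had 7.57, 9.15 and 8.19. Snrpd1 was thus the most highly ranked Sm gene of PB115 and PB120, while Snrpf and Snrpd3 ranked above it in PB119.

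Snrpe, Snrpf and Snrpg, which form a subcomplex of the ring, were listed in PB115 and PB119 only. Snrpe had 9.24 and 13.5 in those lines, Snrpf 14.9 and 22.1, and Snrpg 11.9 and 13.9. Snrpf therefore stood at the 93.0 percentile in PB119, on 91 fragments, with no PB120 peak. Snrpb, which encodes the B and B′ proteins, had a single peak of 9.47 in PB119, and its imprinted, mainly neuronal paralogue Snrpn had none.

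Of 5 genes of U1 proteins, 4 (PB115), 5 (PB119) and 2 (PB120) were listed. Snrpa had folds of 20.5 (PB115), 24.5 (PB119) and 11.6 (PB120), at the 95.1, 95.2 and 77.9 percentile, and the PB119 peak spanned chr7:27195586-27196513. In each line its leading summit also lay within 1000 bp of BC024978. PB120 had another summit of similar fold, 11.3, at the second start with the paired E-boxes printed above. Prpf39 had 10.8 (PB115), 16.0 (PB119) and 9.98 (PB120), with summits 59, 55 and 12 bp downstream of the start. Prpf40b, a homologue of a yeast protein that bridges U1 to the branch point, was listed in PB115 and PB119 only, with 8.85 and 14.1. Snrpc, the gene of the C protein of U1, had 12.4 in PB119 alone.

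Of 11 genes of U2 proteins, 7, 9 and 3 were listed in PB115, PB119 and PB120. The PB120 share was not above the 31.1% of all genes with a CpG-rich window. The 3 in PB120 were Sf3a2, Sf3a3 and Sf3b1. Sf3a3, a subunit of SF3a, had folds of 17.6 (PB115), 19.3 (PB119) and 13.6 (PB120), at the 91.3, 89.3 and 87.5 percentile. Its 83 fragments in PB120 were the most at any member summit of that line, with a 95% Poisson interval of 66.1 to 102.9. Sf3a2 had 14.7 (PB115), 18.2 (PB119) and 8.76 (PB120), shared with Plekhj1. Sf3b1, the branch-point subunit often mutated in human blood disorders, had folds of 11.9 (PB115), 11.9 (PB119) and 10.5 (PB120), with summits 50, 33 and 5 bp downstream of the start.

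Snrpa1, which encodes the A′ protein of U2, was the member with the highest PB119 rank among those not listed in PB120. Its folds were 18.1 and 26.8 in PB115 and PB119, on 87 and 115 fragments, at the 92.2 and 96.6 percentile. The PB119 peak spanned chr7:66060357-66060972. Sf3a1 (6.51 and 11.8), Sf3b2 (10.6 and 15.7) and Sf3b3 (7.49 and 12.2) were likewise listed in PB115 and PB119 and not in PB120. The Sf3b2 values are those of a peak at the far end of the gene, beside Pacs1, and at its listed start the folds were 8.01 in PB115 and 9.44 in PB119. The small SF3b subunit genes Sf3b4 and Sf3b5 were listed in PB119 alone, with 6.40 and 9.28. Sf3b6, the branch-point-contacting subunit, and Snrpb2, the partner of Snrpa1 in U2, had no summit in any list.

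U2AF reads the polypyrimidine tract and the AG at the end of the intron. All 3 genes, U2af1, U2af2 and U2af1l4, were listed in PB115, PB119 and PB120. U2af1, the small subunit, had 10.4 (PB115), 16.6 (PB119) and 10.1 (PB120). U2af1l4, its paralogue, had 10.38 (PB115), 14.01 (PB119) and 10.32 (PB120), with the summit shared with Psenen. At U2af2, the large subunit, the gene-end peaks had 10.8 (PB115), 12.8 (PB119) and 11.4 (PB120), the last at the opposite end of the gene near Epn1. At the end used in PB115 and PB119, PB120 had a peak with a fold of 5.16, at the 2.94 percentile. A body peak had 19.28 (PB115), 24.60 (PB119) and 11.02 (PB120) and lay 1647, 1663 and 1671 bp from the nearer end.

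LSm proteins form the ring on U6 RNA, made of Lsm2 to Lsm8, and a related cytoplasmic ring with Lsm1 in mRNA decay. Of the 7 genes of the U6 ring, 6 (PB115), 7 (PB119) and 5 (PB120) were listed. Lsm3 had folds of 14.3 (PB115), 19.0 (PB119) and 15.9 (PB120), at the 83.4, 88.8 and 93.2 percentile, with the summit shared with the DNA repair gene Xpc. Lsm2 had 16.5 (PB115), 24.4 (PB119) and 11.2 (PB120). Lsm5 had 7.66 in PB119 alone, and Lsm8 8.71 and 5.30 in PB115 and PB119, at the 38.25 and 2.495 percentile.

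Among the other 6 Lsm genes, all were listed in PB115 and PB119 and 5 in PB120. Lsm11, which with Lsm10 replaces Sm proteins in the U7 particle that processes histone messages, had 12.3 (PB115), 20.2 (PB119) and 16.97 (PB120). Its PB120 peak stood at the 94.97 percentile, and its summits were shared with Thg1l. Lsm10 had 10.41 (PB115), 15.04 (PB119) and 6.645 (PB120). Lsm1 had 6.51 (PB115), 16.7 (PB119) and 7.87 (PB120). Lsm14a, a protein of cytoplasmic mRNA granules, had 6.21 (PB115), 16.9 (PB119) and 8.44 (PB120). Lsm12 had 7.61 and 8.26 in PB115 and PB119, 982 and 951 bp from the gene end and so close to the edge of the window.

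The tri-snRNP genes among the Prpf genes are Prpf3, Prpf4, Prpf6, Prpf8 and Prpf31, of which 3 (PB115), 4 (PB119) and 3 (PB120) were listed. Prpf3 had folds of 21.1 (PB115), 15.6 (PB119) and 20.1 (PB120), at the 95.7, 81.4 and 97.5 percentile. Its PB119 peak spanned chr3:95855701-95856071. Prpf4, the partner of Prpf3, had 9.59 (PB115), 15.3 (PB119) and 8.40 (PB120). Prpf6 was the only member listed in PB119 and PB120 but not PB115, with 11.02 and 9.949. Over all coding genes 361 of 21887 had that pattern. Prpf31 had 6.79 and 7.32 in PB115 and PB119. Prpf8, the large U5 protein at the catalytic centre, had no summit in any list.

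Prpf19, the ubiquitin ligase that gives its name to the complex activating the spliceosome, had 17.96 (PB115), 25.93 (PB119) and 15.18 (PB120), at the 91.9, 96.2 and 91.8 percentile. The summits fell 61 bp (PB115), 72 bp (PB119) and 60 bp (PB120) downstream of the start, within a PB119 peak at chr19:10895116-10895571. Prpf38b had 19.1 and 22.9 in PB115 and PB119, at the 93.6 and 93.9 percentile, with no PB120 peak. Prpf38a had 9.03 (PB115), 9.08 (PB119) and 7.07 (PB120). Prpf4b, a kinase of splicing proteins, had 11.3 (PB115), 16.3 (PB119) and 8.43 (PB120). Its leading PB115 summit lay 1191 bp from that of PB119. A weaker PB115 peak, with a fold of 6.56, overlapped the leading PB119 peak. Prpf18, a factor of the last step of splicing in yeast, had none.

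The largest set of members not listed everywhere, 15 genes, had gene-end summits in PB115 and PB119 but not in PB120. Of 61 members with a gene-end summit in both PB115 and PB119, 46 also had one in PB120 (75.4%), against 61.6% of all such genes. Members that stood at or above the 80th percentile of PB119 were listed in PB120 in 30 of 36 cases (83.3%), close to the 80.8% over all genes. Those under it were listed in 16 of 25 cases (64.0%), against 46.0%. The 15 members not listed in PB120 had median percentiles of 45.9 in PB115 and 75.6 in PB119, against 72.0 and 84.6 for the 46 that were. Their ranges overlapped widely, from 2.495 to 96.63 and from 42.27 to 97.69 in PB119. Over all genes the PB119 medians were 66.9 and 84.2. PB120 had fewer tags and a shorter list, and the part of depth in these listings was not tested.

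**Figure D3:**
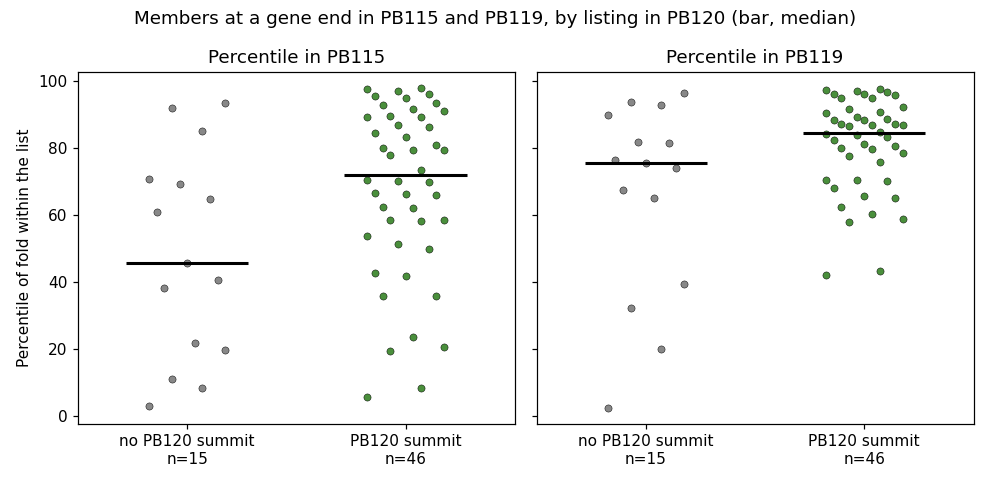
Percentile of fold (vertical axis) in PB115 (left) and PB119 (right) of the 61 members with a gene-end summit in both lines, split by whether PB120 also had one (15 without, 46 with). Each point is a gene and the bar is the median, 45.9 and 72.0 in PB115 and 75.6 and 84.6 in PB119; the 2 groups overlap.

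By family, listing in PB120 ran from all 3 U2af genes, 8 of 11 Srsf and 10 of 13 Lsm genes to 12 of 21 Hnrnp, 7 of 13 Prpf, 4 of 12 Snrp and 3 of 9 Sf3 genes, against 16.4% of all coding genes and 31.1% of those with a CpG-rich window. That order rested on the authors' threshold: with peaks of −log10 p of at least 20, PB120 had 3 U2af, 4 Srsf, 6 Lsm, 7 Hnrnp, 5 Prpf, 4 Snrp and 3 Sf3 genes. The share over all coding genes at that stricter threshold is not given here. The genes listed in PB119 alone were Hnrnpll, Lsm5, Sf3b4, Sf3b5, Snrpb and Snrpc, 6 genes with folds from 6.40 to 12.4. Over all coding genes 2248 of 21887 were listed in PB119 alone. No member was listed in PB120 alone, and none in PB115 and PB120 without PB119. Both patterns were also rare over all coding genes, at 69 and 16 of 21887, so their absence does not set the members apart.

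Leading summits of members lay at much the same place in different lines. Between PB119 and PB115 the median distance was 27 bp over 61 members, between PB120 and PB115 40 bp over 46, and between PB120 and PB119 34 bp over 47. For all genes the median was 26 bp between PB119 and PB115, 35 bp between PB120 and PB115, and 37 bp between PB120 and PB119. Between PB119 and PB115 96.7% of members' leading peaks overlapped, between PB120 and PB115 89.1%, and between PB120 and PB119 91.5%. For all genes those shares were similar, at 95.2%, 92.6% and 93.9%. The leading peaks failed to overlap in at least 1 pair of lines at Prpf4b, Hnrnpd, Hnrnpa0, Hnrnpa1, Hnrnpa3 and U2af2. At Hnrnpa0 and Hnrnpa3 the leading PB120 summit lay 834 and 792 bp from that of PB119. At Hnrnpa3 the difference was in which listed peak was highest. Another PB120 summit of Hnrnpa3 lay 173 bp from the leading PB119 summit. Hnrnpa0 had only 1 listed PB120 peak, which lay within a weaker PB119 peak. No PB120 peak was listed at its leading PB115 and PB119 summits. For U2af2 the distance was 18872 bp, since the leading PB120 peak was at the other end of the gene.

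Relative to the nearest listed start, the leading summits of members had a median position of 12 bp (PB115), 24.5 bp (PB119) and -66 bp (PB120), where positive is downstream. Downstream lay 28 of 52 members (53.8%) in PB115, 32 of 54 (59.3%) in PB119, and in PB120 11 of 41 (26.8%). Over all genes the shares were 41.9% (PB115), 44.7% (PB119) and 28.5% (PB120) and the medians -30, -18 and -57 bp. Members were thus more often downstream than all genes in PB115 and PB119 and about as often in PB120. Each line rests on 1 library, and the shift between lines was not tested.

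**Figure D4:**
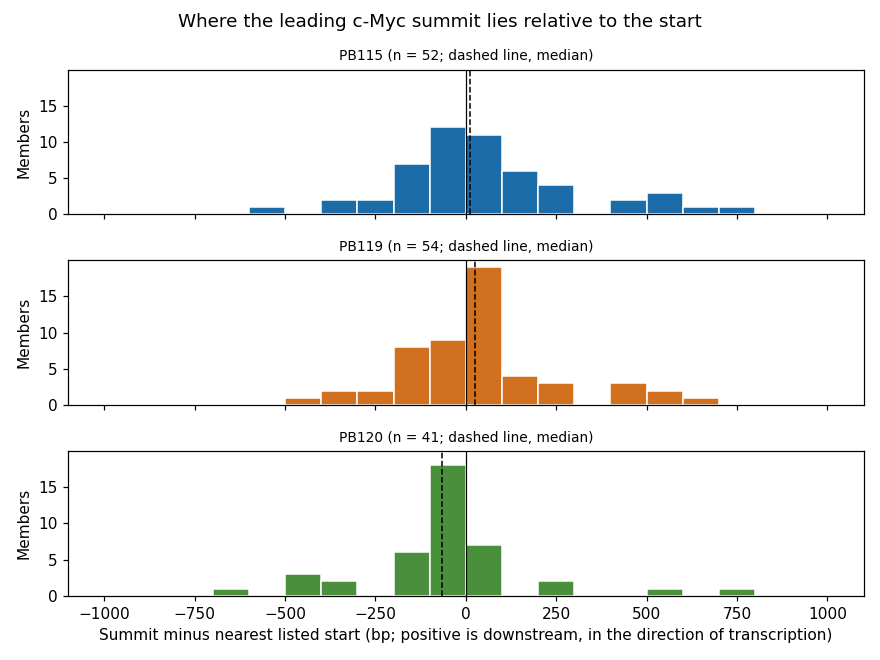
Number of members (vertical axis) by distance of the leading c-Myc summit from the nearest listed transcription start (horizontal axis, bp, positive downstream), in PB115 (52 members), PB119 (54) and PB120 (41), top to bottom. The dashed line is the median, at 12, 24.5 and -66 bp, so PB120 summits sit more to the upstream side.

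Many of these genes lie close to another gene. The leading summit was also within 1000 bp of an end of another coding gene at 45.2% (PB115), 44.1% (PB119) and 44.7% (PB120) of listed members, against 33.6%, 30.8% and 34.2% of all listed genes. Of the 69 members with a gene-end summit in any line, 31 were affected in at least 1. Not all of these neighbours are named above. They include Rmi1 at Hnrnpk, Rpgrip1 at Hnrnpc, Cdc26 at Prpf4 and Marchf2 at Hnrnpm, each in every line. No peak was shared between 2 members. More than 1 gene-end peak was found at 24.2%, 26.5% and 17.0% of listed members in PB115, PB119 and PB120, against 14.8%, 21.7% and 8.42% of all listed genes.

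Other genes of the splicing pathway, from a list of 95 symbols of which 94 matched, gave these counts: 63, 76 and 46 had a gene-end summit in PB115, PB119 and PB120, against 23.6%, 35.3% and 16.4% of all coding genes, and 42 had one in all 3. The members' counts were 62 (PB115), 68 (PB119) and 47 (PB120), with 46 in all 3, from 82 genes. Gemin6, on the pathway list, had the same leading peaks as the member Srsf7, so the sets are not fully separate. Median percentiles of the listed pathway genes were 72.9 (PB115), 78.3 (PB119) and 65.6 (PB120). The 16 genes with no gene-end summit in any line were Aqr, Clk1, Crnkl1, Cwc15, Esrp1, Esrp2, Mbnl1, Nova1, Ppih, Ptbp2, Rbfox2, Smn1, Snrnp27, Srpk2, Srrm2 and Zmat2. They include core spliceosome proteins, splicing kinases and regulators of alternative splicing. Over all coding genes 14035 of 21887 had no gene-end summit in any line. With body summits counted too, 10 of the 94 pathway genes had none, so some of the 16 had a summit inside the gene.

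Ranked by mean percentile, these genes began with Pcbp1, a cytosine-tract binder of the same domain type as Hnrnpk, at the 99.82, 99.96 and 99.96 percentile of PB115, PB119 and PB120. Ptbp1, the polypyrimidine-tract repressor, had folds of 26.4 (PB115), 25.5 (PB119) and 18.7 (PB120). Isy1, a protein of the Prp19 complex, had 24.9 (PB115), 34.5 (PB119) and 14.8 (PB120). Clns1a, a chaperone that holds Sm proteins before they are loaded, had 16.6 (PB115), 30.8 (PB119) and 19.1 (PB120). Its partner Prmt5, the methyltransferase that modifies Sm proteins, had 12.96 (PB115), 26.62 (PB119) and 6.679 (PB120). Wdr77, which acts with Prmt5, had 14.38 (PB115), 16.77 (PB119) and 9.765 (PB120). Snrnp35, a protein of the minor spliceosome, had 20.93 (PB115), 27.99 (PB119) and 12.92 (PB120). Sart3, a recycling factor for U4 and U6, had 14.9 (PB115), 26.2 (PB119) and 16.6 (PB120). Rbm25, an RNA-binding splicing regulator, had 14.6 (PB115), 28.1 (PB119) and 16.5 (PB120). The cap-binding gene Ncbp2 had 19.28 (PB115), 29.96 (PB119) and 12.22 (PB120). The U5 gene Txnl4a stood at the 97.81 (PB115), 99.09 (PB119) and 73.37 (PB120) percentile. Each of these genes was listed in all 3 lines.

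**Figure D5:**
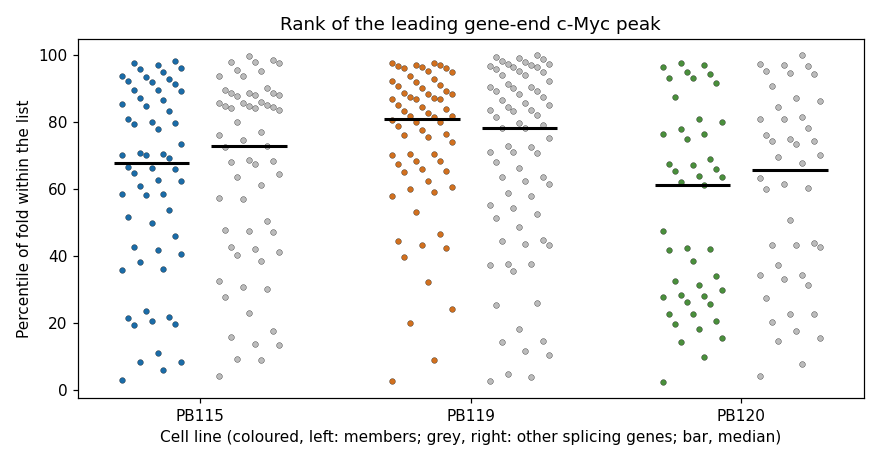
Percentile of fold (vertical axis) of the leading gene-end c-Myc peak in each line for the members (coloured, left) and for the other splicing genes (grey, right); the bar is the median. Members have medians of 67.9, 81.0 and 61.2 in PB115, PB119 and PB120 and the other splicing genes 72.9, 78.3 and 65.6, with points spread over nearly the whole range in both.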

How the data were processed

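The files used were 3 lists of c-Myc peaks in mm10, 1 per ChIP library, each called by the authors against the input of the same line. The submitters' processing notes name Bowtie, SAMtools and MACS2. Peaks were called with MACS 2.1.0.20140616 with a threshold of 1e-10 on the p-value and 1 tag per position, per the file headers. The authors deposited the pileup as a signal: ChIP coverage at the summit, scaled to the input. Undoing that scaling gave whole fragments, within 0.01 of an integer. The deposited fold is a ratio of pileup to local background with 1 added to each. The deposited −log10 p-values served only for a stricter list and another ranking, and the deposited −log10 q-values were not used.

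Genes came from a RefSeq table of GRCm38.p6 without strand, and starts and strands from RefSeq promoter windows. A summit within 1000 bp of either annotated end counted as a gene-end summit, and the peak of highest fold was taken. Values were compared with all protein-coding genes as a description, without a test, since each line had 1 library. Poisson intervals are exact, at 95%. Named genes were the 3 members of highest mean percentile per family among those listed in all lines, those listed in 1 or 2 lists, those with no gene-end summit, those with a body summit, and the pathway genes of highest mean percentile, up to 10; some of these are counted but not reported by name here; Srsf4, Srsf5, Srsf6, Srsf10, Srsf11, Hnrnpa0, Hnrnpa1, Hnrnpa2b1, Hnrnpa3, Hnrnpc, Hnrnpk, Hnrnpm, Snrpd2, Lsm1, Lsm10, Lsm14a, Prpf4, Prpf4b, Prpf38a, Prmt5 and Wdr77 were added for their role or position after their values were seen. The members and lists were chosen with earlier results of these data known. Alternatives changed the window, peak threshold, list length, ranking and motif; the comparison within CpG-rich promoters and the count without chromosome 8 were chosen after seeing the data. Python 3.11.15, numpy 2.4.6, pandas 2.3.3 and matplotlib 3.10.9 were used, and the assignment of summits to genes was tested on simulated data.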

Additional observations from a re-analysis of the deposited data

How the results depend on the processing

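No paired analysis was possible because each line had 1 library. Of 166 values recomputed under another setting, 153 were within 1.5 times those reported and 13 were not. Members with no gene-end summit in any line numbered 13, but 23 when the lists were shortened to the same 5168 peaks and 8 when only listed starts of genes with a promoter sequence counted. With peaks of −log10 p of at least 20 alone, 32 members were listed in PB120 (47) and 31 in all 3 lines (46), and PB120 had 4 Srsf genes (8 reported), 7 Hnrnp genes (12) and 6 Lsm genes (10), and PB115 7 Lsm genes (12). With lists of equal length, PB115 had 7 Lsm genes (12), and PB119 8 Lsm genes (13) and 5 Sf3 genes (8). Accepting CACGCG gave 26 members with a motif (9). With CpG-rich genes as the comparison, the share over all genes was 43.5%, 62.4% and 31.1% in PB115, PB119 and PB120. Without chromosome 8, 58, 64 and 44 of 78 members had a gene-end summit. With equal list lengths 51, 53 and 47 members were listed in PB115, PB119 and PB120. For the stricter threshold, equal list lengths and the count without chromosome 8, shares over all genes are not given here. Those member counts therefore cannot be set against coding genes at large. No error between libraries of 1 line can be given, and genes under the weakest listed summits were not detectable.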
